A study of Mus musculus with 4 samples.

Results

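The 10 genes described here are protein-coding genes known to be imprinted in the mouse and active in brain. They are Gnas, Grb10, Dlk1, Nnat, Ndn, Magel2, Snrpn, Peg3, Usp29 and Zim1. They were taken by symbol from the deposited count tables, and all 10 had a row among the 31735 gene rows that the 4 tables share. The tables come from translating ribosome affinity purification (TRAP), in which an antibody to EGFP captures EGFP-tagged ribosomes and the RNA on them, so that the RNA should come mainly from cells that make the tag. The animals were adult control mice of a single transgenic line, Cbln2-TRAP NIDA172, with Cbln2-EGFP/Rpl10a, and received no treatment. The tissue was the rostral pons. The 4 immunopurified libraries form 1 group, with no second genotype, treatment or tissue. Sex and exact age are not given in the sources used here, nor is whether a library came from 1 animal or a pool, so the spread between libraries may be technical.

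In genomic imprinting, a gene is expressed mainly or solely from the copy inherited from one parent, because methylation marks set in the egg or sperm silence the other copy. Imprinted genes lie in clusters that share such a control region, and many are strongly expressed in neurons of the hypothalamus and brainstem, where loss of paternal copies affects feeding, growth and breathing in Prader-Willi syndrome. Peg3, Usp29, Ndn, Magel2, Snrpn, Nnat and Dlk1 are known to be expressed from the paternal copy and Zim1 from the maternal copy. Grb10 is known to switch, with the paternal copy in neurons and the maternal copy in most other tissues, and Gnas makes transcripts of either kind. The counts do not separate parental copies, so the imprint itself was not measured.

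The libraries held 12731825 to 21140265 gene counts, and 1 count was worth 0.0473 to 0.0785 counts per 1000000 gene counts (CPM). The row Rn45s, named for the ribosomal RNA precursor, took 24.2% and 9.29% of the gene counts in replicates 3 and 4, against 1.68% and 1.61% in replicates 1 and 2, and lowers the CPM of every other gene by that share. Cbln2 itself was at 126 and 65.7 CPM in replicates 3 and 4, against 239 and 110 CPM in replicates 1 and 2, and all 10 general neuronal genes reached 1 CPM in every library. In bulk RNA, fewer cells of a type and less RNA per cell cannot be told apart, and enrichment over the whole tissue was not measured. The descriptions number the libraries 2469 and 2470 (replicates 3 and 4) and 1666 and 1667 (replicates 1 and 2). Replicates are numbered here by their titles, although number 2470, which is replicate 4 by title, is marked as replicate 3 in its description. These runs of adjacent numbers are called the later and the earlier pair below, by number and not by a known date. The labels name no batch, the pairs were inferred from the numbers, and a difference between them is a difference between replicates.

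The 10 genes lie on 4 chromosomes, and several are close neighbours, which matters for the comparisons below. Peg3 (chromosome 7, 6703892 to 6730431, minus strand) and Usp29 (6730578 to 6967219, plus strand) start 147 bases apart and run away from each other, in GENCODE M21 coordinates on GRCm38, the assembly of mm10. Zim1 (6671269 to 6696450, minus strand) follows Peg3 after a gap of 7.44 kb. Snrpn (59982495 to 60140219, minus strand), Ndn (62346569 to 62350262, plus strand) and Magel2 (62377010 to 62381640, plus strand) lie on the same chromosome in the Prader-Willi region. Ndn and Magel2 have 1 exon each and are separated by 26.7 kb. Nnat (chromosome 2, 157560078 to 157562522, plus strand) lies inside Blcap on the opposite strand, with 0 bases of shared exon. Gnas (174284320 to 174346744, plus strand) is on chromosome 2 as well. Grb10 (11930508 to 12038683, minus strand) is on chromosome 11 and Dlk1 (109452823 to 109463336, plus strand) on chromosome 12.

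Promoter sequences from RefSeq (GRCm38.p6, 250 bases before to 50 bases after the start) were found for all 10 genes. The Peg3 window (chr7:6730370-6730669, minus strand) is shown because Usp29 shares 263 bases of it on the other strand, and yet the RNAs of the genes differed in level. Those of Ndn (chr7:62348027-62348326, plus strand) and Magel2 (chr7:62376729-62377028, plus strand) are shown because these neighbours differed both in level and in how they varied. The RefSeq start of Ndn lies inside the single exon that GENCODE gives, so its window is within the gene as placed above. Levels of Ndn per kb use the longer GENCODE gene, and a shorter length was not tested. Nnat (chr2:157559828-157560127, plus strand) was added after its values were seen, because it differed most clearly between the libraries. Capitals mark CpG dinucleotides, the sites at which imprinting methylation is set.
Peg3: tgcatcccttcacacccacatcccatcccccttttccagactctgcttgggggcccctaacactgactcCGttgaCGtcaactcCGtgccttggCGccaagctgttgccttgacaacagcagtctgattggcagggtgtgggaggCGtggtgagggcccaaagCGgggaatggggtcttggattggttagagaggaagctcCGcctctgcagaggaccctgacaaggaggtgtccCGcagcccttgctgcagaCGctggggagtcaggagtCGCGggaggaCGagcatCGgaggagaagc
Ndn: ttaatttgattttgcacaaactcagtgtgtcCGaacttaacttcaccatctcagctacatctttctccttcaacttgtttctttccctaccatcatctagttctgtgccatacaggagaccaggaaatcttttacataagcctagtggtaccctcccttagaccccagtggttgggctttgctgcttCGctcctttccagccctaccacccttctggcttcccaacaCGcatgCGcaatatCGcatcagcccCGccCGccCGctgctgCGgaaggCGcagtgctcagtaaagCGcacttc
Magel2: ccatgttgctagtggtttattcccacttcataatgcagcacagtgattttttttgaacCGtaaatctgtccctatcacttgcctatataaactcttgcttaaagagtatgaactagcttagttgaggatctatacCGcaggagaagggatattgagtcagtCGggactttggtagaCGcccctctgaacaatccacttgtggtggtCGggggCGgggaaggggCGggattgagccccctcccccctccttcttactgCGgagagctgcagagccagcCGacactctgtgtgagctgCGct
Nnat: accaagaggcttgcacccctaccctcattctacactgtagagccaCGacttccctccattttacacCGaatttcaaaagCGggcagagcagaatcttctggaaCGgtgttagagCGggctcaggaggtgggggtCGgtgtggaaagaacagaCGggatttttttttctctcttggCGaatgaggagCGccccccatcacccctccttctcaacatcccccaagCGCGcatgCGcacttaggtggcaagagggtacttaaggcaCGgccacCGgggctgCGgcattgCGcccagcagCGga
The windows hold 13 CpG in Peg3, 11 in Ndn, 10 in Magel2 and 17 in Nnat, against a median of 7 over 32851 promoters of the same length. The letters GCATGCGC, the core of the motif of the transcription factor NRF1, occur on either strand in 2.71% of these promoters. Among the windows of the 10 genes they occur in Ndn and in Nnat, where matches on the 2 strands overlap in a single stretch. They are not in the windows of Magel2 or Peg3. The letters GCCATNTT, a core of the motif of YY1, occur in 6.05% of promoters and in none of the windows of the 10 genes. A match describes letters only, and methylation and binding were not measured.

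**Figure D1:**
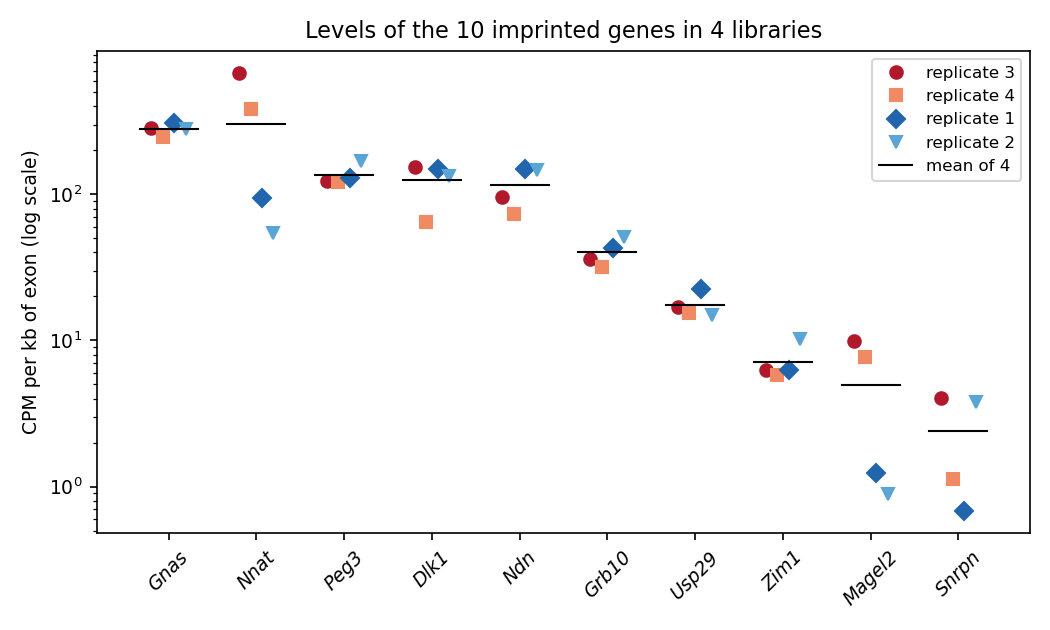
CPM per kb of exon (log scale) of the 10 genes, ordered by mean log2 level; each symbol is 1 library and the black line is the mean of 4. Gnas sits between 247 and 310, while Nnat spans 54.3 to 680 and Magel2 0.888 to 9.89.

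All 10 genes reached 1 CPM in all 4 libraries, a level that 33.5% of all gene rows reached, and 6 of them reached 100 CPM in all 4, against 4.19% of all rows. Together they held 0.802% and 0.638% of gene counts in replicates 3 and 4, against 0.760% and 0.759% in replicates 1 and 2. The genes were chosen as active in brain and with earlier results known, so these shares describe the set and do not test it. Most of the mean sum of 7397 CPM came from Gnas (3129) and Peg3 (1809), and the set covered a wide span. By CPM per kb of exon, the scale on which genes are compared, Gnas and Nnat stood highest, Peg3, Dlk1 and Ndn followed closely, Grb10 and Usp29 were intermediate, and Zim1, Magel2 and Snrpn were low. Neighbours in this order differed by more than 2 SD of their log2 difference at 3 steps. These were Ndn over Grb10 (1.47 ± 0.25, SD, n = 4), Grb10 over Usp29 (1.19 ± 0.38) and Usp29 over Zim1 (1.24 ± 0.52), each in 4 of 4 libraries. The other 6 steps between neighbours in the order lay within their spread, and genes further apart in it were compared only in the pairs given below. On this scale Grb10 was 6th and Usp29 7th in every library, whereas Nnat was 1st in replicates 3 and 4 and 5th in replicates 1 and 2. The order depends on the exon lengths, and it was not repeated with other lengths. In CPM, Ndn (269) was below Grb10 (290) in replicate 4, and Grb10 (388) was below Usp29 (404) in replicate 1. Neither step therefore held in every library without the division by length, whereas Usp29 stayed above Zim1 (log2 2.45 ± 0.55).

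Gnas encodes the stimulatory G protein alpha subunit, which couples many receptors to cyclic AMP. It had 3160 and 2761 CPM in replicates 3 and 4, against 3465 and 3130 CPM in replicates 1 and 2. The values of the pairs overlapped, and the coefficient of variation of 9.21% was the smallest of the 10 genes, though still above the 0.452% that counting alone would give. Only 1.19% of the 10632 genes that reached 1 CPM in every library had a smaller SD of log2 CPM. These figures use totals that include Rn45s. With Rn45s left out, Gnas was at 3480 ± 503 CPM (SD, n = 4) and Peg3 at 1999 ± 267. Relative to its mean, Gnas then varied more than Peg3. With TMM scaling of the totals, Gnas (3167 ± 400) still varied less than Peg3 (1829 ± 320). Per kb of exon, Gnas exceeded Gnal, which encodes the related olfactory and striatal alpha subunit, 5.32-fold (log2 2.41 ± 0.56, SD, n = 4). The ratio was above 0 on the log2 scale in 4 of 4 libraries. The union of Gnas exons (11186 bases over 24 annotated transcripts) is far longer than its longest transcript (3947 bases), so the levels per kb of exon are low for transcripts of that size. With the longest transcript of each gene as the length, the ratio to Gnal was 7.78.

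Grb10 encodes an adaptor that binds the insulin and insulin-like growth factor receptors and dampens their signal. It had 328 and 290 CPM in replicates 3 and 4, against 388 and 465 CPM in replicates 1 and 2, so that the later pair lay below the earlier one without overlap. With Rn45s left out of the totals, replicate 3 lies between replicates 1 and 2, and the pairs overlap. The log2 change was -0.44 with SE 0.32 and did not pass the test (edgeR adjusted p = 0.548). Its paralog Grb14 was at 27.4 and 14.4 CPM in replicates 3 and 4, against 11.7 CPM in both earlier libraries. Grb10 exceeded Grb14 per kb 15.3-fold (log2 3.93 ± 0.68, 4 of 4 libraries). Grb7, the third gene of this family, had a mean of 4.27 CPM and did not reach 1 CPM in every library.

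Dlk1 encodes a membrane protein of the Delta and Notch family that also sheds a soluble form. It had 867 and 366 CPM in replicates 3 and 4, against 846 and 755 CPM in replicates 1 and 2. Replicate 4 alone was low, and the pairs overlapped. The log2 change of -0.31 (SE 0.41, edgeR adjusted p = 0.776) depended on which later library was kept. It was -1.23 without replicate 3 and 0.24 without replicate 4, and each of these fits leaves a lone later library. Replicate 4 also had the highest summed level of noradrenaline neuron genes, with 77.4 and 257 CPM in replicates 3 and 4, against 67.0 and 26.5 CPM in replicates 1 and 2 (4 of 6 genes at 1 CPM in all libraries, and Phox2a at 0 counts in both earlier ones). The serotonin neuron list summed to 22.9 and 124 CPM in replicates 3 and 4, against 30.0 and 21.5 CPM in replicates 1 and 2 (2 of 4 genes at 1 CPM in all libraries, with Slc6a4 at 0 counts in some). The astrocyte, oligodendrocyte, oligodendrocyte precursor, microglial and ependymal sums given below were also highest in replicate 4. The part of any of these cell types in the low Dlk1 value was not tested. The related gene Dlk2 had 7.30 and 9.92 CPM in replicates 3 and 4, against 0.520 and 1.09 CPM in replicates 1 and 2. Dlk1 exceeded Grb10 per kb 2.95-fold (log2 1.56 ± 0.47, 4 of 4 libraries). Without the division by length the log2 ratio was 0.89 and no longer over 2 SD.

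Meg3, a noncoding RNA expressed from the maternal copy, starts 88.2 kb from Dlk1 in the same imprinted cluster. It had 261 and 1555 CPM in replicates 3 and 4, against 1533 and 532 CPM in replicates 1 and 2. Its order of libraries was unlike that of Dlk1, with the lowest Meg3 value in replicate 3, where Dlk1 was highest. The log2 ratio of Dlk1 to Meg3 per kb was 1.48 ± 1.64 and above 0 in 3 of 4 libraries, within its spread, and it turned to -0.18 without the division by length.

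Nnat encodes neuronatin, a small proteolipid of the endoplasmic reticulum linked to calcium handling and secretion. It had 1243 and 703 CPM in replicates 3 and 4, against 172 and 99.2 CPM in replicates 1 and 2. Both later libraries were several times above both earlier ones. Nnat rose in the later pair, with a log2 change of 2.90 (SE 0.42, edgeR adjusted p = 0.0103) and means of 973 CPM in the later pair and 136 CPM in the earlier pair. It was the single one of the 10 genes that passed, where 1.27% of 13905 genes tested passed in either direction with 0.712% higher and 0.554% lower. The log2 change of Nnat was 2.28 to 3.32 under 9 alternative settings. Nnat passed in each setting that kept all 4 libraries, with adjusted p of 1.78e-11 to 0.0120 by edgeR and 1.60e-08 by DESeq2. DESeq2 called 9.44% of the genes to which it gave an adjusted p.

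Blcap, the gene around Nnat, had 83.4 and 70.0 CPM in replicates 3 and 4, against 87.0 and 114 CPM in replicates 1 and 2 (log2 change -0.36, SE 0.42, edgeR adjusted p = 0.736). The log2 ratio of Nnat to Blcap per kb was 4.61 and 4.03 in replicates 3 and 4, against 1.70 and 0.53 in replicates 1 and 2. Its mean of 2.72 ± 1.92 did not exceed 2 SD, although all 4 ratios were above 0. Without replicate 2 it was 3.45 and over 2 SD. The log2 ratio of Gnas to Nnat, which lie on the same chromosome but in different clusters, was -1.26 and -0.64 in replicates 3 and 4, against 1.71 and 2.36 in replicates 1 and 2. The mean of 0.54 ± 1.76 lay within the spread and turned to -0.06 without replicate 2. It was 1.71 with the longest transcripts as lengths and 3.15 without the division by length, also within 2 SD.

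Ndn and Magel2 encode proteins of the MAGE family, and both are lost in Prader-Willi syndrome. Necdin, the product of Ndn, restrains cell division and supports neuronal survival, and MAGEL2 works with the ubiquitin ligase TRIM27 and the protease USP7 in endosome recycling. Ndn had 357 and 269 CPM in replicates 3 and 4, against 548 and 541 CPM in replicates 1 and 2. Magel2 had 45.8 and 35.5 CPM in replicates 3 and 4, against 5.68 and 4.11 CPM in replicates 1 and 2. The pairs overlapped for neither gene, with Ndn lower and Magel2 higher in the later pair.

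The log2 change of Magel2 was 3.09 (SE 0.73), larger than that of Nnat, but it missed the threshold (edgeR adjusted p = 0.0619). Magel2 passed by DESeq2 (adjusted p = 0.000181), by edgeR with no filter on low counts (0.00876) and among genes that reached 1 CPM in every library (0.0249). These settings called 1377, 875 and 528 genes in all, against 176 in the main fit. It did not pass by edgeR with other size factors (0.0638) or without the 20 most abundant gene rows (0.0603). Fits without 1 library leave a lone library in a pair, and gave log2 changes of 2.76 to 3.35. Magel2 rested on 583 and 544 counts in replicates 3 and 4, against 120 and 64 counts in replicates 1 and 2. Exact 95% Poisson intervals ran from 42.1 to 49.7 and 32.6 to 38.6 CPM in replicates 3 and 4, and from 4.71 to 6.79 and 3.17 to 5.25 CPM in replicates 1 and 2, which cover counting error only. The log2 change of Ndn was -0.76 (SE 0.33, edgeR adjusted p = 0.257), and it was below 0 under all 9 alternatives, at -1.12 to -0.49, without passing in any.

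Ndn exceeded Magel2 per kb 29.6-fold on average (log2 4.89 ± 1.96, 4 of 4 libraries), although their genes are neighbours on the same strand. The log2 ratio was 3.22 and 3.17 in replicates 3 and 4, against 6.43 and 6.73 in replicates 1 and 2, so the gap was narrower in both later libraries. The Magel2 partner gene Usp7 was at 129 and 142 CPM in replicates 3 and 4, against 177 and 189 CPM in replicates 1 and 2. Trim27 was at 10.3 and 11.3 CPM in replicates 3 and 4, against 3.78 and 33.9 CPM in replicates 1 and 2. Neither partner passed the test (edgeR adjusted p = 0.603 and 0.762).

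Snrpn encodes SmN, a core protein of spliceosomal particles that replaces SmB in neurons. Its row was low, with 8.80 and 2.42 CPM in replicates 3 and 4, against 1.47 and 8.23 CPM in replicates 1 and 2. These values rested on 31 to 128 counts, and the libraries differed beyond counting error in no order that followed the pairs. The exact 95% Poisson interval was 7.24 to 10.6 CPM in replicate 3 and 1.70 to 3.33 in replicate 4, against 0.996 to 2.08 in replicate 1 and 6.86 to 9.78 in replicate 2. The fitted log2 change was 0.28 (SE 1.39, edgeR adjusted p = 0.954), and it turned to -0.50 without replicate 1 and to -1.12 without replicate 3.

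The Snrpn value is uncertain because its exons overlap those of other genes on the same strand. In GENCODE, Gm38393 shares 589 bases (27.3%) of Snrpn exon, and Snurf, an upstream reading frame on the same RNA, shares 216 bases. Gm38393 has no row shared by the 4 tables. In RefSeq, Snurf (chromosome 7, 59982495 to 60005199) ends at the same base as Snrpn (59982495 to 60450177) and lies wholly inside it. The annotation and overlap rule used for counting are not given in the sources used here. The tables set aside 1.25% and 1.28% of the total of replicates 3 and 4, against 2.07% and 1.39% of replicates 1 and 2, as ambiguous between genes, and how many of these reads belong to Snrpn was not tested. The Snurf row had 11 counts each in replicates 3 and 4, against 4 and 7 counts in replicates 1 and 2.

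As counted, Snrpn stood at 0.0222 of Ndn per kb (log2 -5.49 ± 1.09, below 0 in 4 of 4 libraries). Against Snrpb, which encodes SmB and had 11.9 and 15.1 CPM in replicates 3 and 4 and 5.68 and 14.7 CPM in replicates 1 and 2, the log2 ratio was -1.31 ± 0.80. All 4 ratios were below 0, and the mean exceeded 2 SD only without replicate 3 (-1.58 ± 0.73). Against Magel2 (-0.61 ± 1.67) and against Ube3a (-0.46 ± 1.28), the maternally expressed ubiquitin ligase gene of the same region, the ratio lay within the spread. Without the division by length, the log2 ratio to Ube3a was -3.69 and over 2 SD. The union of Ube3a exons is 20626 bases long.

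Peg3 encodes a large zinc finger protein that acts as a transcriptional regulator and is known for effects on maternal care and growth. It had 1656 and 1624 CPM in replicates 3 and 4, against 1721 and 2233 CPM in replicates 1 and 2. The later pair lay just below the earlier one, and replicate 2 stood above the other libraries. With Rn45s left out of the totals, replicate 3 lies between replicates 1 and 2, and the pairs overlap. The log2 change was -0.25 (SE 0.29, edgeR adjusted p = 0.736). Only 4.57% of the genes that reached 1 CPM in every library had a smaller SD of log2 CPM.

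Usp29, which faces Peg3, encodes a protein of the ubiquitin-specific protease family. It had 305 and 280 CPM in replicates 3 and 4, against 404 and 269 CPM in replicates 1 and 2, and the pairs overlapped. The log2 change was -0.17 (SE 0.34, edgeR adjusted p = 0.865), and it was 0.12 without replicate 1. Peg3 exceeded Usp29 per kb 7.64-fold (log2 2.93 ± 0.39, 4 of 4 libraries), although the genes start from the shared stretch printed above. The union of Usp29 exons (18078 bases) includes many alternative exons, and with the longest transcripts as lengths the ratio was 4.96. GENCODE also places Zim3 antisense to 2582 bases of Usp29 exon, but the Zim3 row held 0 counts in 3 libraries and 1 count in replicate 1.

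Zim1, a zinc finger gene of the same cluster with expression from the maternal copy, had 50.7 and 46.9 CPM in replicates 3 and 4, against 50.9 and 83.1 CPM in replicates 1 and 2. As for Peg3, replicate 2 was high and the other 3 libraries lay close together. With Rn45s left out of the totals, replicate 3 lies between replicate 2 and the rest, and the pairs overlap. The log2 change was -0.44 (SE 0.49, edgeR adjusted p = 0.723). Peg3 exceeded Zim1 18.1-fold per kb (log2 4.18 ± 0.15), the ratio with the smallest SD among the 14 gene pairs compared. With the longest transcripts as lengths the ratio was 26.4. Usp29 exceeded Zim1 2.36-fold (log2 1.24 ± 0.52), and 5.31-fold with the longest transcripts as lengths. This ratio was above 0 in 4 of 4 libraries and no longer over 2 SD without replicate 3 (log2 1.20 ± 0.63) or replicate 4 (1.21 ± 0.63).

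**Figure D2:**
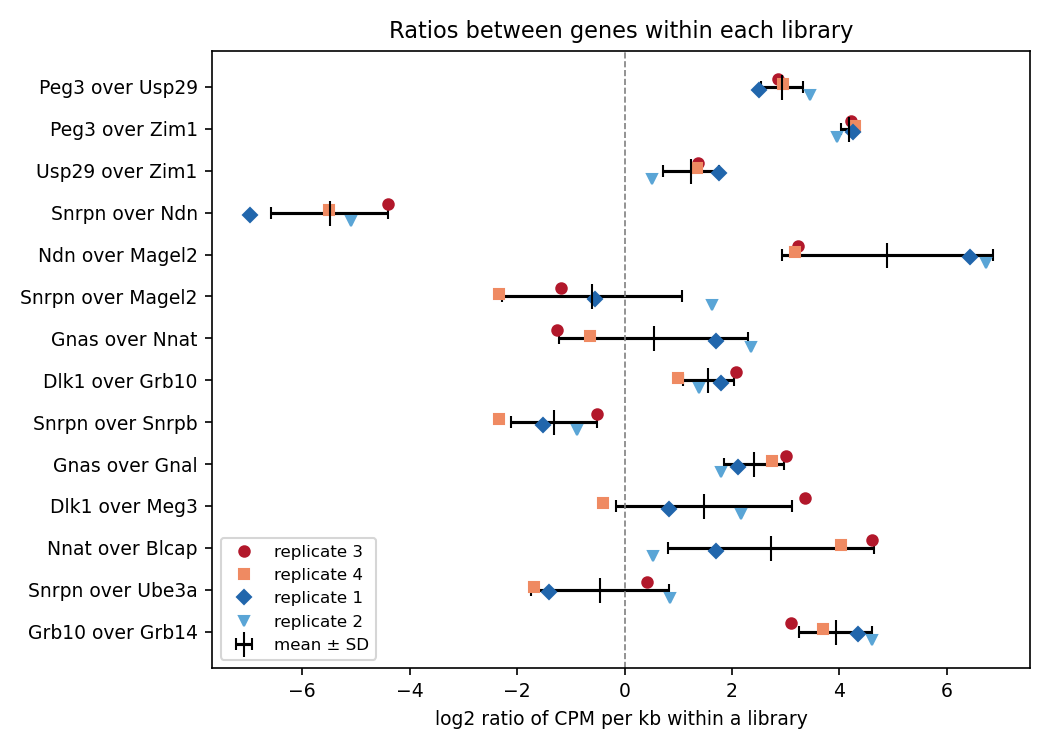
Log2 ratios of CPM per kb between the genes of 14 pairs; symbols are single libraries, and the black tick and bar are the mean ± SD of 4. The Peg3 and Zim1 symbols lie together, while the later libraries stand apart from the earlier ones wherever Nnat or Magel2 is compared with Ndn, Gnas or Blcap. The later libraries also stand apart for Gnas over Gnal, Grb10 over Grb14 and Snrpn over Magel2.

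Of the 14 pairs, 10 went one way in all 4 libraries and 8 had a mean over 2 SD. With 4 libraries the two-sided exact sign-flip permutation test has 16 sign patterns, and its smallest p is 2 of 16. All 10 one-way pairs reached that value (exact p = 0.175 after Benjamini-Hochberg adjustment over 14 pairs), so no pair can pass 0.05 and the statements rest on direction and spread. The exact p was 0.250 for Dlk1 and Meg3, 0.5 for Snrpn against Magel2 and against Ube3a, and 0.625 for Gnas and Nnat.

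The later pair differed from the earlier one without overlap in 6 of the 10 genes, of which Nnat and Magel2 were higher and Peg3, Ndn, Zim1 and Grb10 lower. Among all genes tested the share was 47.5%, with 23.7% higher and 23.8% lower, so 6 of 10 is near the background. Both counts use totals that include Rn45s. With Rn45s left out of the totals, the pairs overlap for Peg3, Zim1 and Grb10. Ndn stays lower, and Nnat and Magel2 stay higher, without overlap. The share over all genes tested was not recomputed in that way. The median log2 change was -0.21 over the 10 genes and -0.03 over all genes tested. Unadjusted edgeR p-values were under 0.05 for Ndn, Nnat and Magel2 (0.0372, 1.34e-05 and 0.00110), that is 3 of 10, beside 16.8% of all genes tested. The changes of Nnat and Magel2 lay above the 95th percentile of all genes tested (2.77), and the other 8 were between -0.76 and 0.28. DESeq2 called Nnat and Magel2, in a comparison in which it called 9.44% of the 14584 genes to which it gave an adjusted p.

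**Figure D3:**
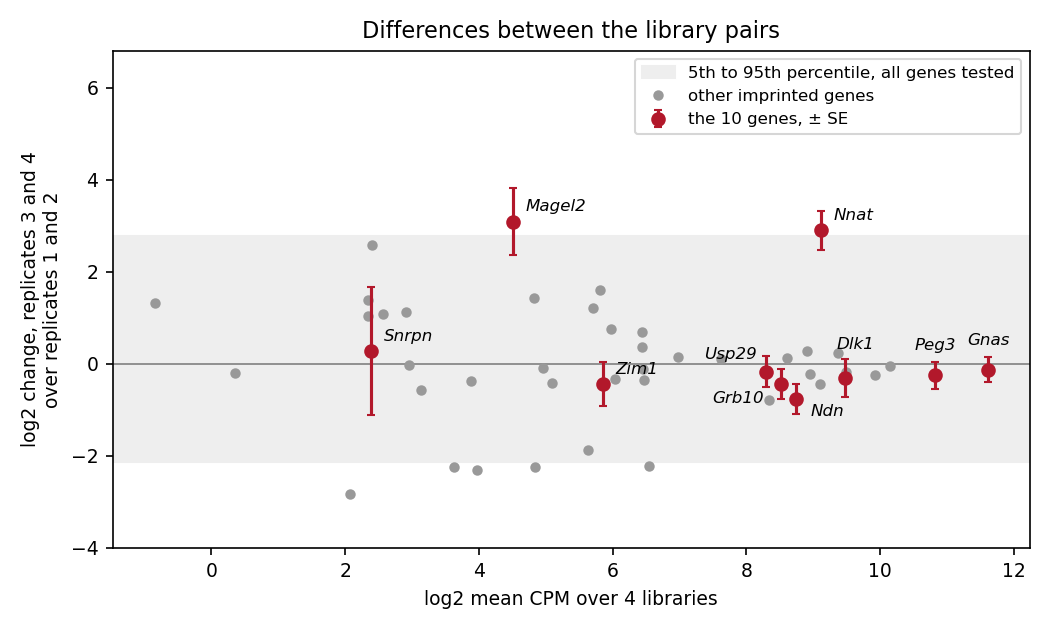
Log2 change of the later pair (replicates 3 and 4) over the earlier pair (replicates 1 and 2) against log2 mean CPM; red points are the 10 genes with SE, grey points the other imprinted genes tested, and the grey band the 5th to 95th percentile of all genes tested. Nnat and Magel2 lie above the band and the other 8 genes inside it.

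Other measures moved with the pairs too. The summed cerebellar granule cell list was at 189 and 320 CPM in replicates 3 and 4, against 639 and 1539 CPM in replicates 1 and 2 (8 of 8 genes at 1 CPM in all libraries, none at 0). The Purkinje cell and Bergmann glia list was at 732 and 701 CPM in replicates 3 and 4, against 1468 and 2478 CPM in replicates 1 and 2 (5 of 6 genes). Its genes did not all go one way, since 4 of 6 were lower and 2 higher without overlap. Calb1 had 283 and 184 CPM in replicates 3 and 4, against 166 and 158 CPM in replicates 1 and 2, and Pcp2 had 5.66 and 11.6 CPM in replicates 3 and 4, against 1.09 and 3.60 CPM in replicates 1 and 2. The general neuronal list was at 12015 and 12892 CPM in replicates 3 and 4, against 26107 and 23257 CPM in replicates 1 and 2 (10 of 10 genes). Most of that sum was Snap25, a synaptic vesicle fusion gene, with 8131 and 6936 CPM in replicates 3 and 4, against 18577 and 15908 CPM in replicates 1 and 2. The median log2 change of the 10 neuronal genes was -0.22. Nefm, a neurofilament gene, fell (log2 change -2.56, edgeR adjusted p = 0.0238) and Tubb3, a neuronal tubulin gene, rose (1.97, edgeR adjusted p = 0.0307). These 3 sums and Peg3, Ndn, Zim1 and Grb10 were lower in the later pair, while Nnat, Magel2, the share of Rn45s and the noradrenaline neuron and ependymal sums were higher. Of the imprinted genes that were lower, only Ndn stays so without overlap when Rn45s is left out of the totals.

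The astrocyte, oligodendrocyte, precursor, microglial, vascular and acetylcholine sums overlapped between the pairs. The astrocyte list summed to 439 and 2181 CPM in replicates 3 and 4, against 1740 and 2009 CPM in replicates 1 and 2 (7 of 8 genes). The oligodendrocyte list summed to 414 and 2392 CPM in replicates 3 and 4, against 1430 and 1730 CPM in replicates 1 and 2 (6 of 8 genes, with Opalin at 0 counts in replicate 2). The acetylcholine neuron list summed to 73.5 and 94.0 CPM in replicates 3 and 4, against 65.1 and 169 CPM in replicates 1 and 2 (1 of 3 genes at 1 CPM in all libraries). Most of that sum was Slc5a7, with 48.5 and 64.4 CPM in replicates 3 and 4, against 63.0 and 168 CPM in replicates 1 and 2. Its log2 change was -1.04 (edgeR adjusted p = 0.321). The other 2 genes were higher in the later pair without overlap, as were 23.7% of all genes tested. Chat had 22.3 and 25.7 CPM in replicates 3 and 4, against 1.56 and 0.836 CPM in replicates 1 and 2 (edgeR adjusted p = 0.0613). Slc18a3 had 2.75 and 3.85 CPM in replicates 3 and 4, against 0.615 and 0.643 CPM in replicates 1 and 2 (edgeR adjusted p = 0.572), and rested on 10 to 59 counts. Oligodendrocyte precursor genes summed to 17.3 and 41.7 CPM in replicates 3 and 4, against 15.8 and 28.3 CPM in replicates 1 and 2, and microglial genes to 7.62 and 43.2 CPM in replicates 3 and 4, against 25.8 and 3.92 CPM in replicates 1 and 2. Ependymal and choroid plexus genes summed to 7.38 and 129 CPM in replicates 3 and 4, against 3.69 and 6.88 CPM in replicates 1 and 2 (0 of 6 genes at 1 CPM in all libraries, Folr1 at 0 counts in all 4). Endothelial and mural genes summed to 212 and 219 CPM in replicates 3 and 4, against 218 and 286 CPM in replicates 1 and 2 (5 of 8 genes, with Cldn5 at 0 counts in replicate 4). The part of these cell types in the values of the 10 genes was not tested.

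**Figure D4:**
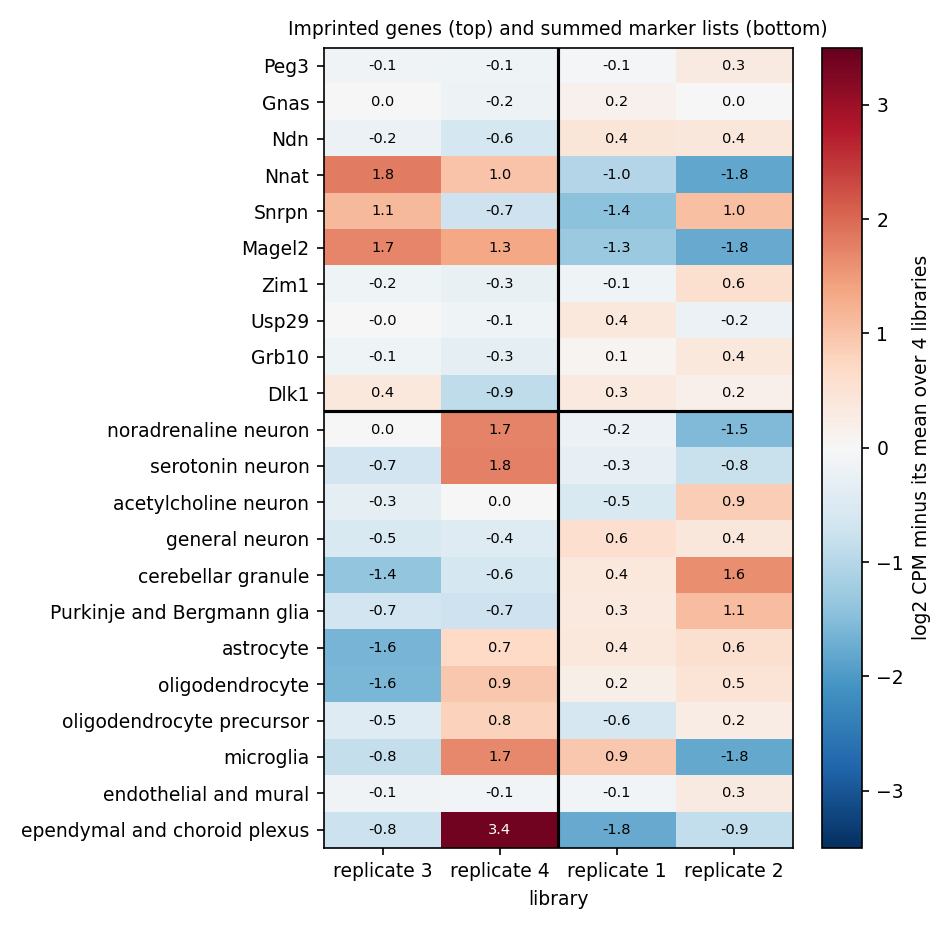
Log2 CPM of the 10 genes (top) and of the summed marker lists (bottom) minus the mean over the 4 libraries, with the value printed in each cell. Nnat and Magel2 share 1 order of libraries. The noradrenaline neuron and the ependymal and choroid plexus sums are also higher in both later libraries, by little in replicate 3.

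How each gene varied over the 4 libraries was compared with 6436 or 6437 genes that reached 10 CPM in every library, by the root mean square difference of log2 CPM centred on its mean. With 4 libraries this describes the libraries only. The gene nearest to Magel2 was Nnat, at 0.23, beside deviations of 1.54 for Magel2 and 1.48 for Nnat themselves. Rpl28, a ribosomal protein gene, was equally near to Magel2 (0.23) and nearest to Nnat (0.16), followed by Caly (0.18). Ablim1 lay near Peg3 (0.022), and the nearest genes to Gnas were Pias2 (0.024) and Ywhah (0.031). Since 447 and 511 genes lay within 0.2 of Peg3 and Gnas, such nearness is common for genes that vary little. Nearest were Mxi1 and Palm2 to Ndn (0.026 and 0.046), Zfp788 and Vdac3 to Zim1 (0.050 and 0.053), and Rpf2 and Rfwd2 to Usp29 (0.034 and 0.041). Slc25a46 and Actr3 were nearest to Grb10 (0.045 and 0.046), and 2310036O22Rik and Fibp to Dlk1 (0.046 and 0.050). Snrpn had no close gene, with Prosc at 0.34 and Osbpl3 at 0.40.

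A wider list of 46 other imprinted genes gives the setting. Of these 45 had a row and 33 reached 1 CPM in all 4 libraries. Among 17 measured genes with expression from the paternal copy, 13 reached 1 CPM throughout. Nap1l5, a nucleosome assembly protein gene, was highest at 391 ± 107 CPM per kb of exon (SD, n = 4), above the 280 ± 25.8 of Gnas. That order depends on the length used, since the union of Gnas exons (11186 bases) is far longer than its longest transcript (3947 bases). Without the division by length, Gnas was higher, at 3129 ± 288 CPM against 721 ± 198 CPM for Nap1l5. Impact, a translation regulator gene, was at 129 ± 20.4, Rasgrf1, a Ras exchange factor gene of neurons, at 103 ± 14.7, Peg10, a gene derived from a retrotransposon, at 82.2 ± 15.9 and Inpp5f, a phosphoinositide phosphatase gene, at 38.9 ± 12.2 CPM per kb.

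Of 18 measured genes with expression from the maternal copy, 13 reached 1 CPM throughout. The highest per kb were Ppp1r9a, a neuronal actin-binding protein gene, at 32.9 ± 9.24, Blcap at 29.1 ± 6.02, Ago2, a gene of the RNA silencing machinery, at 27.7 ± 8.42, Copg2, a coat protein gene of transport vesicles, at 17.0 ± 5.81 and Trappc9, a vesicle tethering gene, at 7.08 ± 4.35 CPM per kb. Many of this list are imprinted in some tissues or by partial bias only. Among 10 noncoding genes, Peg13 was at 105 ± 27.9, Meg3 at 53.6 ± 37.1, Rian at 4.83 ± 1.02, Snhg14 at 2.52 ± 0.877 and Kcnq1ot1 at 1.35 ± 0.860 CPM per kb. Peg12, Phlda2, Slc22a18 and H19 had 0 counts in all 4 libraries, which allows up to 0.236 and 0.196 CPM in replicates 3 and 4, and up to 0.142 and 0.193 CPM in replicates 1 and 2.

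None of the 38 other imprinted genes tested passed between the library pairs by edgeR. At an unadjusted p under 0.05 there were 8, against 16.8% of all genes tested, and DESeq2 called 4 of 37, which were Plagl1, Sgce, Trappc9 and Zrsr1. The smallest edgeR adjusted p was 0.0652, for Zrsr1, which had 44.7 and 18.8 CPM in replicates 3 and 4, against 109 and 201 CPM in replicates 1 and 2. Without replicate 3, edgeR called Zrsr1, without replicate 1 Sgce and Zrsr1, without replicate 4 Meg3, and without replicate 2 none. The median log2 change was -0.42 over 15 tested genes of the paternal list, 0.27 over 15 of the maternal list and -0.18 over 8 noncoding genes, beside -0.03 over all genes tested. A difference as large as those of Nnat and Magel2 was reached upward by none of them, the highest being 2.57 for Rtl1 (edgeR adjusted p = 0.471).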

How the data were processed

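Ribosome-bound RNA of 4 libraries was sequenced and counted per gene. The authors deposited raw counts, 1 value per gene symbol, and did not normalize them. Per the submitters' processing notes, STAR 2.0.0e and HTSeq were used on mm10. The annotation, strand setting and overlap rule are not given in the sources used here. Overlapping and antisense genes therefore could not be told apart. The 5 HTSeq summary rows, which held 24.0% to 30.1% of a library as reads outside features and 28.6% to 37.2% as reads aligned more than once, and an empty row named unknown were left out. Rows present in only some tables held 0.549% to 0.732% of gene counts.

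CPM were computed from the gene counts of each table. Levels between genes were divided by the union of exons in GENCODE M21, with 0.5 CPM per kb added before taking log2. The later libraries were compared with the earlier ones by the quasi-likelihood test of edgeR 4.0.16, after TMM scaling and its default expression filter, with Benjamini-Hochberg adjustment over 13905 genes and a threshold of 0.05. The SE is the log2 change over the square root of F. On simulated counts of 11829 genes for this comparison, 100% of 100 changes of log2 size 4 and 82% of 100 of size 2 were recovered. In addition, 8 unchanged genes were called. The simulation gave every gene the same variability and left out genes with few counts, so it does not give the recovery in the real libraries. There, Magel2 did not pass with a log2 change of 3.09. A ratio was called beyond its spread when its mean was over 2 SD. Alternatives were DESeq2 1.42.0, other size factors, filters, lengths, pseudocounts and library sizes, and leaving out each library. A lone library left in a pair was assumed to vary like the others.

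The genes and lists were chosen with earlier results of these data known. All 10 genes were named. Of the other imprinted genes, those named were in a listed pair, passed the test or were among the 5 highest per kb of a list. Paralogs and partners came from a list. Plagl1, Sgce, Zrsr1, Rtl1, single marker genes and the genes at 0 counts were named after their values were seen. Protein sequences were not used here, and 1 gene near Peg3 in its variation is not reported here.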

Additional observations from a re-analysis of the deposited data

Results flagged for a closer look

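The CPM of Peg3 in replicate 2 (2233, against 1624 to 1721 in the other libraries) and that of Zim1 in the same replicate (83.1, against 46.9 to 50.9) stood far from the rest. The gap took 0.842 of the range for Peg3 and 0.890 for Zim1, above the 95% critical value of Dixon's test for 4 values. In all, 40 sets of 4 values were examined and 2 were past it, and chance alone gives about 1 in 20. These values use totals that include Rn45s. With Rn45s left out of the totals, replicate 3 moves toward replicate 2 and neither gene is past the critical value.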

How the results depend on the processing

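The count of genes that differed between the library pairs was 176, and 1377 by DESeq2, 875 with no filter on low counts and 528 among genes that reached 1 CPM in every library. It was 389 to 699 when 1 library was left out. Of the 10 genes, 1 passed, and 2 in each of these alternatives, Nnat and Magel2 except without replicate 3, where they were Nnat and Dlk1. Of log2 changes that had not passed, 4 turned direction, namely Snrpn (-0.50 without replicate 1, -1.12 without replicate 3, leave-one-out range -1.12 to 2.05), Usp29 (0.12 without replicate 1, range -0.41 to 0.12), Gnas (0.06 without replicate 4, range -0.36 to 0.06) and Dlk1 (0.24 without replicate 4, range -1.23 to 0.24). Without the division by length, the log2 ratio was 0.89 for Dlk1 to Grb10, -0.18 for Dlk1 to Meg3 and -3.69 for Snrpn to Ube3a. Leaving out 1 library gave log2 ratios of -0.06 to 1.14 for Gnas to Nnat, 2.09 to 3.45 for Nnat to Blcap, 1.07 to 1.49 for Usp29 to Zim1 and -1.58 to -0.97 for Snrpn to Snrpb. The mean of Gnas was 3480 CPM when Rn45s was left out of the totals. Leaving out that row raises the CPM of every other gene, and the mean of Peg3 went from 1809 to 1999 CPM. Why the other results above changed was not tested. Of 88 log2 changes, 112 log2 ratios and 70 mean levels under alternatives, 76, 104 and 69 kept direction and call or stayed within 1 SD. No paired analysis was possible because all libraries form 1 group and the library pairs share no replicate number in the titles. Counting alone would give a coefficient of variation of 0.452% to 13.2% in the 10 genes, highest in Snrpn, where it was 73.1% between libraries.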
